A study of Mus musculus with 18 samples.

Results

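The chromosome 2, 4 and 13 zinc finger gene clusters of the mouse were followed across 18 libraries of reduced representation bisulfite sequencing (RRBS), a method that cuts genomic DNA at CCGG sites, keeps short CpG-rich fragments and reads unconverted cytosines as methylated. The clusters were taken as the mm9 windows chr2:174900000-177900000, chr4:144500000-147700000 and chr13:62000000-68000000. All 1 kb tiles of these windows were used that had at least 3 CpGs read 5 or more times, both strands added, in at least 2 samples of each of the groups compared. In all, 637 tiles met this in at least 1 comparison, with 88 on chromosome 2, 231 on chromosome 4 and 318 on chromosome 13, of 136394 such tiles in the genome. Of the 637, 189 (13, 89 and 87 by window) were measured in every group and give the levels below, beside 6580 tiles from the rest of the same chromosomes. The windows were picked with measured levels in view, so their level against the rest of the chromosomes is a description, with no test.

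The libraries came from 4 samples of female embryonic stem cells (ESC), 2 of male ESC, 2 of female induced pluripotent stem cells (iPSC), 2 each of female SSEA1+ and SSEA1- cells, 4 of female mouse embryonic fibroblasts (MEF) and 2 of male MEF. SSEA1 is a surface antigen of mouse pluripotent cells, used to sort cells on their way from fibroblasts to iPSC, and the series as a whole is about the X chromosome during reprogramming. The labels give cell type and sex and name no strain, allele, transgene or time. Whether the samples of a group are separate cultures is not stated, so the p-values cover only how these samples vary, and part of that may be technical. Genomic DNA carries no expression markers by which the cell types could be checked. In X chromosome tiles of 30 or more CpGs, methylation was 40.7 to 45.7% in female MEF libraries and 29.8 to 30.7% in male MEF libraries, while female ESC (13.1 to 14.2%) and male ESC (14.9 to 16.3%) lay close together. Chromosome Y was not analysed here.

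Total reads over CpGs ran from 11424460 to 62920167 per library, and mean reads per CpG in the windows from 14.1 to 75.2. By the share of CpGs read on both strands the libraries fell into 3 types, which the labels do not name. All ESC libraries were of type A (8 to 14%), all SSEA1 libraries of type B (over 14%) and both iPSC libraries of type C (under 8%). Female MEF 1 to 4 were of types A, B, C and C, and male MEF 1 and 2 of types B and A. The 2 iPSC libraries, and likewise female MEF 3 and 4, differed by little more than sampling noise, with a chi-square per CpG of 1.11 and 1.07, against 1.77 to 4.39 for the other pairs of a group. They were kept as separate samples, and counts with each such pair summed into 1 sample are given beside results that rest on them.

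Zinc finger genes with a KRAB domain form one of the largest families of transcription factors in mammals. Many encode proteins that bind retroelements and recruit a repressor complex that deposits repressive histone marks and DNA methylation. Such genes lie in clusters that grew by repeated tandem duplication, so neighbouring genes and promoters are often near-identical copies. Methylation of a CpG-rich promoter goes with silencing in most tissues, and female mouse ESC are known for lower genome-wide methylation than male ESC.

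The promoters printed here mark the places that the results turn on. Each runs from 250 bases before the annotated start to 50 bases after it, 5′ to 3′, from RefSeq on GRCm38.p6, with every CG in capitals because RRBS scores these positions. No genome of the files' build was used here, so a promoter was placed in the windows by the spacing of its CpGs alone, and the positions given are those of the matching CpGs on mm9.
Zfp935: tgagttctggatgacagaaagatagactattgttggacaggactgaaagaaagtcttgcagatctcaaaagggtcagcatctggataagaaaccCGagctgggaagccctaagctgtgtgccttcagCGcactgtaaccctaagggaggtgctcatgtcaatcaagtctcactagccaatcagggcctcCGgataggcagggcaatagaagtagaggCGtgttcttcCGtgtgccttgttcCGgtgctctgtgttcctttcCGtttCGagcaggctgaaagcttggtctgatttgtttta
Gm13165: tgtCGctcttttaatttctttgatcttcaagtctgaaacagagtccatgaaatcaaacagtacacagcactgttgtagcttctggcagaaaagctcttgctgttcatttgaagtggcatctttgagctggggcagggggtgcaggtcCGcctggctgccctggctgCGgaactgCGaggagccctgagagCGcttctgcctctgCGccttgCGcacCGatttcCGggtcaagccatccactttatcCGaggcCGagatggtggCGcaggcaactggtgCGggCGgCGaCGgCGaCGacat
Gm31714: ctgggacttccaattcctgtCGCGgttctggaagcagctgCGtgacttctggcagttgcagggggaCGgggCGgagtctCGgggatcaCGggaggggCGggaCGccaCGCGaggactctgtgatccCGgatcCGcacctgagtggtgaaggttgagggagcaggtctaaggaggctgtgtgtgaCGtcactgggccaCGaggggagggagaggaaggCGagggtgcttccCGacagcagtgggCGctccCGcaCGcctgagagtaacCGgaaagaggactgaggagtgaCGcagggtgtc
Gm32476: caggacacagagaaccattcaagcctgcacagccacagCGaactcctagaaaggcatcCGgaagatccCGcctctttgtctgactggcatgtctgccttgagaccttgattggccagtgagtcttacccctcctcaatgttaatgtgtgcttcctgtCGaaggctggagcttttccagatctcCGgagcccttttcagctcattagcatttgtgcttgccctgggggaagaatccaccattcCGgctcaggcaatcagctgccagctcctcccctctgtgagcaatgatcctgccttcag
Zfp966: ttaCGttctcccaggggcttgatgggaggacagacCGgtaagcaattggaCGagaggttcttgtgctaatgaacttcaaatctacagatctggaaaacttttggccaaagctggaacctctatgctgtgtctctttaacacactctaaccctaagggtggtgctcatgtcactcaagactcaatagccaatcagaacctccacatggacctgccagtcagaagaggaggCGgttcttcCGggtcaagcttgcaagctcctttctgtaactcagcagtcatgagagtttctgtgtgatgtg
Zfp935 (8 CpGs) was close to unmethylated in all groups, and so were the 4 places on chromosome 4 that match Gm13165 (18 CpGs), apart from up to 13.6% in iPSC. Gm31714 (22 CpGs) matches 5 places on chromosome 13 that were nearly unmethylated in ESC and partly methylated in MEF. Gm32476 (6 CpGs) marks a place that was low in ESC and highly methylated in MEF, and Zfp966 (5 CpGs) is 1 of several chromosome 2 promoters of like CpG spacing. Zfp935 and Zfp966 are named in RefSeq as zinc finger proteins, and the others are predicted genes for which no role is given here.

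The window tiles were least methylated in pluripotent cells. Their mean level per library was as follows. Female ESC held 22.6, 21.6, 21.9 and 21.7%, male ESC 32.9 and 33.0%, iPSC 29.6 and 29.5%, SSEA1+ cells 39.995 and 39.3%, SSEA1- cells 42.2 and 41.0%, female MEF 42.0, 40.6, 40.7 and 41.2% and male MEF 42.3 and 44.2%. Female ESC, iPSC and male ESC each stood apart from all other groups, whereas the SSEA1 and MEF libraries all lay within 39.3 to 44.2%. The group means were 22.0 ± 0.466% for female ESC (SD, n = 4), 33.0 ± 0.0494% for male ESC, 29.5 ± 0.0806% for iPSC, 39.6 ± 0.513% for SSEA1+ cells, 41.6 ± 0.851% for SSEA1- cells (n = 2 each), 41.1 ± 0.620% for female MEF (n = 4) and 43.2 ± 1.34% for male MEF (n = 2). The difference of female ESC from female MEF was -19.2 points over all libraries and -20.01 points from the 1 female MEF library of the ESC type. That of iPSC from female MEF was -11.6 points, and -11.4 points within their own type.

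Against tiles of like CpG number in the rest of the same chromosomes, the windows were lower in ESC and iPSC. The difference was -5.46 ± 0.298 points in female ESC (SD, n = 4), -7.61 ± 0.296 in male ESC and -6.06 ± 0.353 in iPSC (n = 2 each). The chromosome 2 window went the other way in female ESC, with 24.1 ± 1.36% against 22.4 ± 0.311% in the rest of that chromosome, here not matched on CpG number. For SSEA1+ cells, SSEA1- cells, female MEF and male MEF the difference over all 3 windows was -2.90, -2.04, -3.49 and -3.06 points. The ESC and iPSC differences kept their sign in every way of taking the level that was tried, from -7.84 to -2.36 points. Those of the other groups did not: at 10 reads per CpG they were 0.162 points for SSEA1+ cells, 1.05 for SSEA1- cells, 0.627 for female MEF and 0.426 for male MEF. No direction is therefore given for the windows of SSEA1 cells and MEF against the rest of their chromosomes.

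**Figure D1:**
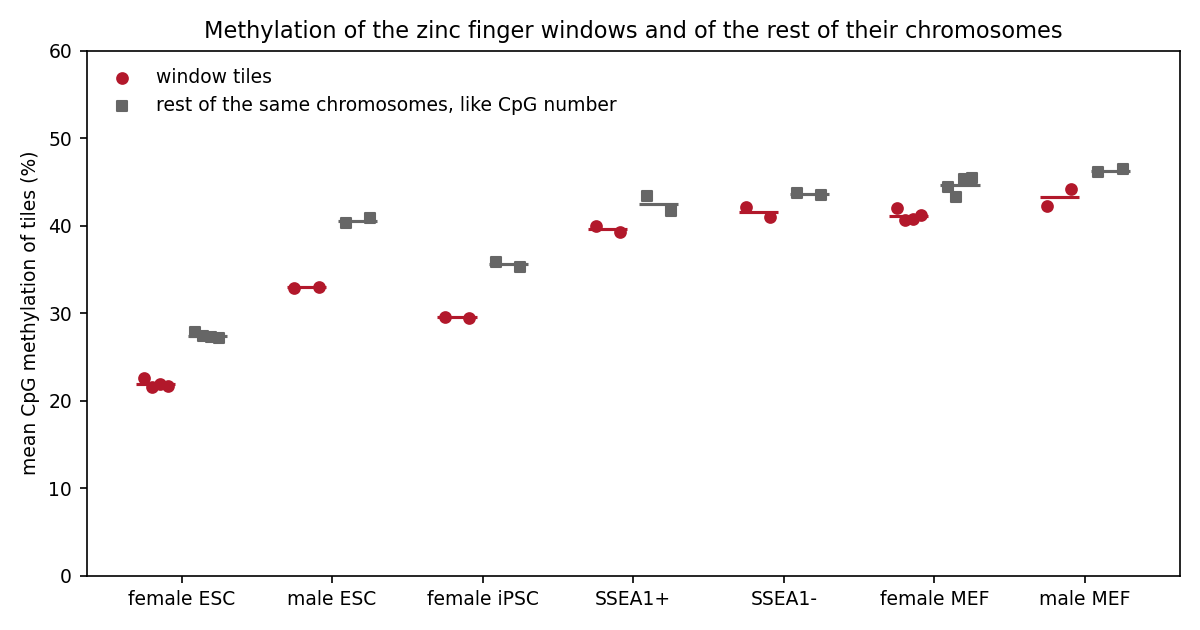
Mean methylation of the 189 window tiles (circles) and of tiles of like CpG number in the rest of chromosomes 2, 4 and 13 (squares), in percent on the y axis, with 1 point per library in the 7 groups and bars at the group means. Window levels lie at 21.6 to 22.6% in female ESC and 40.6 to 42.0% in female MEF, and the gap to the squares is wider in ESC and iPSC than in the other groups.

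The shape of the distribution differed as well, with more tiles at an intermediate level. In female MEF, 45 of 189 window tiles (23.8%) lay from 10 to under 60%, against 12.4% of the rest at like CpG number. Window tiles under 10% made up 33.9%, against 43.7% of the 6580 tiles of the rest, and those at 60% or more made up 42.3%, against 43.7%. The surplus was CpG-rich. Among tiles of 8 or more CpGs, 28 of 95 window tiles (29.5%) were intermediate, against 286 of 3631 tiles of the rest (7.88%).

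The 28 CpG-rich intermediate tiles were almost free of methylation in pluripotent cells. Their mean levels were 2.99% (female ESC), 5.55% (male ESC) and 6.14% (iPSC), then 23.2% (SSEA1+), 24.8% (SSEA1-), 26.5% (female MEF) and 27.4% (male MEF). Under 10% lay 27 of the 28 in female ESC, 25 in male ESC and 26 in iPSC. The 286 tiles of the rest, chosen by the same female MEF level, averaged 11.9% in female ESC, 23.1% in male ESC, 22.4% in iPSC and 24.4% in female MEF, and 170 of them were under 10% in female ESC. Window tiles of 15 to 29 CpGs (40 tiles) averaged 5.91% in female ESC and 23.9% in female MEF, and such tiles of the rest (1438) averaged 7.84% in female ESC and 16.6% in female MEF.

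**Figure D2:**
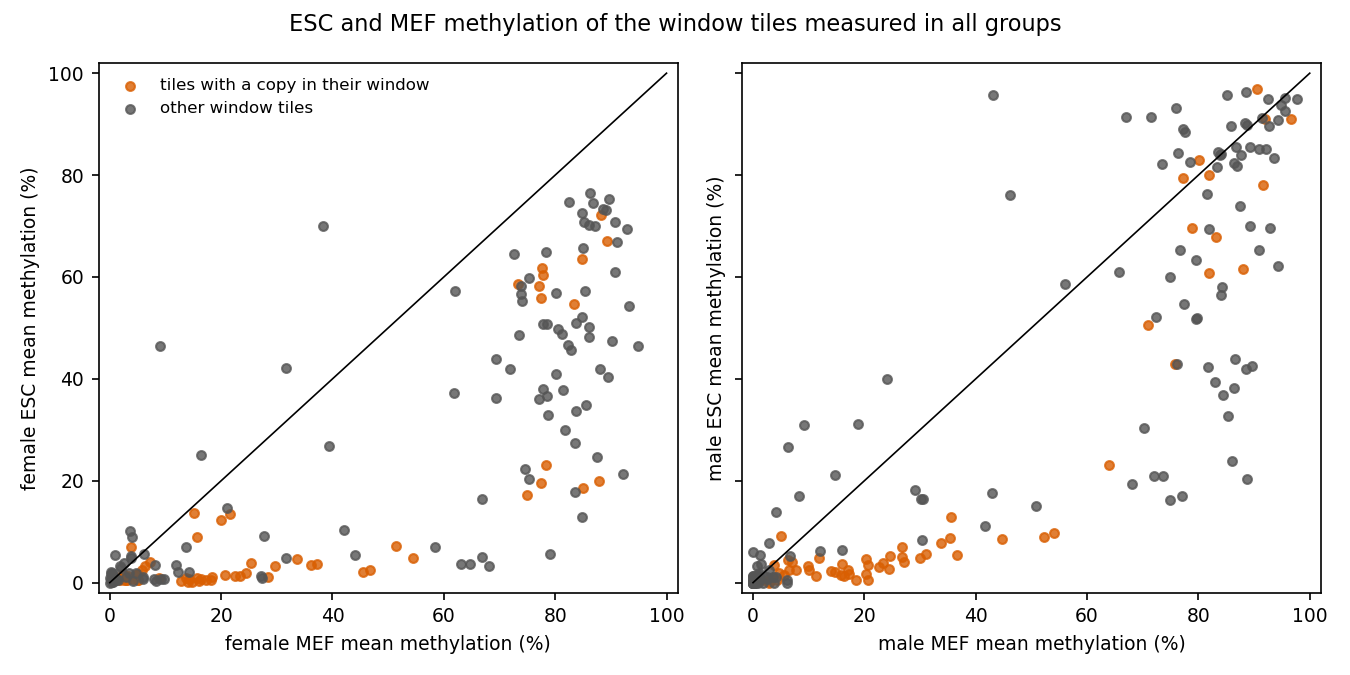
Mean methylation (percent) of each of the 189 window tiles in ESC (y axis) against MEF of the same sex (x axis), females on the left and males on the right, with the line of equal levels. Orange tiles share their CpG spacing with another place of the window, and many of them form a band under 10% in ESC that spreads along the MEF axis.

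Tandem copies held 29 of the 45 intermediate tiles. Copies were found without use of methylation, as runs of 5 CpGs under 300 bases long whose spacing recurred at least 2 kb away in the same window and at no more than 2 places outside it, a definition made after the files were seen. To compare with the rest, a copy was also looked for within 3 Mb in place of the window. By that rule one was present for 43 of 88 window tiles on chromosome 2 (48.9%), 52 of 231 on chromosome 4 (22.5%) and 24 of 318 on chromosome 13 (7.55%). In the rest of these chromosomes, 0.932, 2.26 and 0.969% of tiles of like CpG number had a copy within 3 Mb. Of the 60 copied tiles measured in every group, 29 (48.3%) were intermediate in female MEF, with mean levels of 3.36% in female ESC, 4.51% in male ESC, 4.85% in iPSC and 24.9% in female MEF. Of the 129 other window tiles, 16 (12.4%) were intermediate, a share near that of the rest of the chromosomes.

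The tiles with a copy in their window, 118 in all, fell into 23 families, written as the chromosome and a running number. Of the 29 intermediate tiles, 10 were of family 4-1, 7 of family 13-1 and 4 of family 13-3. The share of intermediate tiles thus rests on few families and on tiles that are not independent. No tile of families 2-2, 2-3, 2-5, 13-2, 13-4 and 13-5 was at an intermediate level in female MEF. The same held for families 4-2, 4-3 and 4-5 to 4-11. Among the 56 copied tiles that were measured in every group, as was a second tile of their family, copies had much the same level. In female MEF their SD within families was 5.43 points, against 35.8 points among all 189 window tiles, and in female ESC it was 5.45 points, against 25.5 points. Over all tiles some families were much wider. The 33 tiles of family 2-1, 5 of them measured in every group, ran over 0.483 to 51.6% in female ESC and 2.38 to 66.1% in female MEF, the 6 of family 13-2 over 37.2 to 78.0% in male ESC, and the 2 of family 4-10 lay at 19.5 and 60.4% in female ESC. How reads that fit several copies were placed is not given in the sources used here, so the levels of single copies cannot be fully told apart. Copied tiles were read more deeply than other window tiles, at a median of 29.7 reads per CpG against 18.5.

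The 11 tiles of family 4-1 lay at 6 places between 145054001 and 147114000 on chromosome 4 and had a median of 17.3 CpGs. Female ESC held 2.99, 2.92, 1.58 and 2.78%, male ESC 6.06 and 6.86%, iPSC 5.39 and 5.74%, SSEA1+ cells 27.4 and 17.9%, SSEA1- cells 29.1 and 30.4%, female MEF 28.8, 25.3, 28.1 and 27.8% and male MEF 25.7 and 34.3%, each as the median over the tiles. ESC and iPSC did not overlap with the other groups, and the SSEA1 libraries lay within the range of MEF except SSEA1+ 2, which lay below it. All 11 tiles were lower in female ESC than in female MEF at an adjusted p under 0.05 (a quasi-binomial model over all tiles of the genome), and 10 of them by at least 20 points, where such tiles made up 63.5 and 50.9% of all tiles tested. In male ESC against male MEF these counts were 10 and 6, beside 23.1 and 16.2% of all tiles. A single tile, chr4:146315001-146316000 with 3 CpGs, stood apart from its family, at 11.3% in female ESC, 54.6% in male ESC, 58.1% in female MEF and 48.4% in male MEF.

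Family 4-4, with 6 tiles at 3 places, had a wider contrast at a similar CpG number (median 16.5). Female ESC held 5.40, 4.37, 3.89 and 3.45%, male ESC 9.04 and 9.90%, iPSC 8.06 and 7.58%, SSEA1+ cells 45.9 and 39.2%, SSEA1- cells 46.7 and 44.8%, female MEF 49.1, 53.5, 48.5 and 51.6% and male MEF 47.3 and 49.7%. Every ESC and iPSC library was below 10%, and every other library above 39%. Each of the 6 tiles was lower by at least 20 points at an adjusted p under 0.05, the rule for a called tile from here on, in female ESC, in male ESC and in iPSC, each against MEF of its sex. For iPSC, 25.8% of all tiles tested were called lower. The most CpG-rich, chr4:145722001-145723000 with 38.8 CpGs, averaged 4.79 ± 0.835% for female ESC (SD, n = 4), 9.02 ± 1.17% for male ESC, 6.77 ± 0.428% for iPSC (n = 2 each) and 54.5 ± 4.38% for female MEF (n = 4). The tile chr4:146562001-146563000 was more methylated than its family in ESC and MEF, at 23.0 ± 3.60% in female ESC and 42.9 ± 8.55% in male ESC, with 8.91 ± 1.11% in iPSC and 78.3 ± 3.15% in female MEF.

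On chromosome 13, families 13-1 (7 tiles) and 13-3 (4 tiles) were likewise lower in ESC and iPSC than in SSEA1 cells and MEF, at lower levels throughout. They include the 5 places that match the Gm31714 promoter printed above. Family 13-1 had these medians. Female ESC held 0, 0.694, 1.10 and 0%, male ESC 1.09 and 2.79%, iPSC 4.75 and 4.65%, SSEA1+ cells 10.7 and 15.4%, SSEA1- cells 17.0 and 9.98%, female MEF 10.7, 9.97, 19.5 and 18.7% and male MEF 15.4 and 17.3%. ESC and iPSC lay below all other libraries. Both iPSC libraries were above male ESC, whereas in families 4-1 and 4-4 they were below male ESC, and female MEF 3 and 4, of type C, lay above female MEF 1 and 2. All 11 tiles of both families were lower at an adjusted p under 0.05 in female ESC, male ESC and iPSC, each against MEF of its sex (49.1% of all tiles for iPSC), and 1 of these differences reached 20 points, in male ESC. At chr13:65663822-65664121, where 11 of the 12 CpGs read fall on those of Gm31714, methylation was 1.31 ± 2.04% in female ESC and 21.9 ± 8.47% in female MEF (SD, n = 4 each).

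Family 13-2 (6 tiles, median 7.24 CpGs) set female ESC apart from male ESC and iPSC. Female ESC held 12.3, 9.95, 7.63 and 14.5%, male ESC 42.0 and 47.4%, iPSC 53.9 and 54.0%, SSEA1+ cells 77.7 and 78.3%, SSEA1- cells 76.6 and 74.2%, female MEF 75.5, 73.5, 73.2 and 73.8% and male MEF 77.3 and 84.8%. By these medians over tiles the female ESC libraries were the lowest, male ESC and iPSC lay in between, and SSEA1 cells and MEF were all above 70%. The value of SSEA1+ 2 rests on 2 of the 6 tiles. Single tiles went down to 49.2% in SSEA1+ cells, 59.3% in SSEA1- cells and 61.9% in female MEF. All 6 tiles were called lower in female ESC than in male ESC, by 28.5 to 58.1 points, beside 43.0% of all tiles tested. All 6 were also called higher in iPSC than in female ESC, by 26.4 to 53.3 points, beside 17.6% of all tiles. Female ESC and iPSC libraries were of different types, and the counts with the library type as a term are given with that comparison.

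Families 4-2 and 4-3 had a small contrast or none. Family 4-2 (9 tiles) holds the most CpG-rich tiles of the windows, with up to 54.9 CpGs, and the 4 places that match Gm13165. Its median was 0.335 to 0.817% in female ESC, 0.640 to 0.888% in male ESC, 3.59 to 4.14% in iPSC, 3.13 to 4.87% in SSEA1 cells and 2.10 to 3.84% in MEF. Differences were under 20 points at every tile. At an adjusted p under 0.05 and any size, 7 of 9 tiles were lower in female ESC than in female MEF. Over all tiles tested this share was 63.5%. Family 4-3 (8 tiles) had medians of 1.32 to 7.84% over all libraries and no called tile. At the other end, families 2-5, 4-5, 4-6, 4-7, 4-8, 4-9, 4-11 and 13-4 were methylated in every group that covered them. Family 4-7 was not covered in iPSC. Medians were 49.1 to 78.2% in female ESC and 75.5 to 90.3% in female MEF. Female ESC were nevertheless called lower than female MEF at all 3 tiles of family 4-7 (median difference -30.5 points). They were also called lower at both tiles of family 4-8 (-27.0 points), beside 50.9% of all tiles tested. Male ESC were called lower than male MEF at 0 of 3 and 1 of 2 of these tiles, beside 16.2% of all tiles. So few tiles do not set these families apart from the genome. In families 4-6, 4-11 and 13-4 no tile was called in either sex. Families 2-3 and 13-6, with 2 tiles each, were lower in female ESC and iPSC than in female MEF, with medians of 17.5 and 3.82% in female ESC, 29.1 and 17.7% in iPSC, and 76.0 and 54.9% in female MEF. In family 2-3, female MEF 1 and 2 held 66.4 and 61.5%, and female MEF 3 and 4, of type C, 88.0 and 88.2%. There iPSC were tested against female MEF at 1 tile.

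Family 2-1 was the largest, with 33 tiles at 31 places between 174967001 and 177692000 on chromosome 2. Female ESC held 2.44, 1.61, 4.35 and 3.57%, male ESC 1.18 and 0%, iPSC 3.16 and 3.69%, SSEA1+ cells 8.49 and 2.13%, SSEA1- cells 6.67 and 11.5%, female MEF 9.004, 9.30, 18.9 and 16.5% and male MEF 11.4 and 17.4%. ESC and iPSC libraries lay under 4.4%, whereas the SSEA1 and MEF libraries lay at 2.13 to 18.9%, so the groups overlap. These medians rest on different tiles, 11 and 13 in iPSC and 13 and 14 in female MEF 3 and 4, against 22 to 33 in the other libraries. As means over the tiles, female ESC ranged over 7.17 to 11.9% and female MEF over 10.6 to 18.8%. Its tiles held few CpGs (median 6.92), and 5 of the 33 were measured in every group. None of 29 tiles tested was called lower in female ESC than in female MEF, against 50.9% of all tiles, and 9 (31.0%) were lower at any size, against 63.5%. In male ESC against male MEF, 4 of 18 (22.2%) were called lower, against 16.2% of all tiles. No tile of 21 was called between female and male ESC, with a median difference of 2.91 points. Several tiles fit the spacing of the Zfp966 promoter or of its relatives Zfp965, Zfp967, Zfp968 and Zfp973, but on 4 of their 5 CpGs. The same search with strands swapped placed 7 of 117 chromosome 2 promoters, against 14 with the true strand, so these placements are weak.

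**Figure D3:**
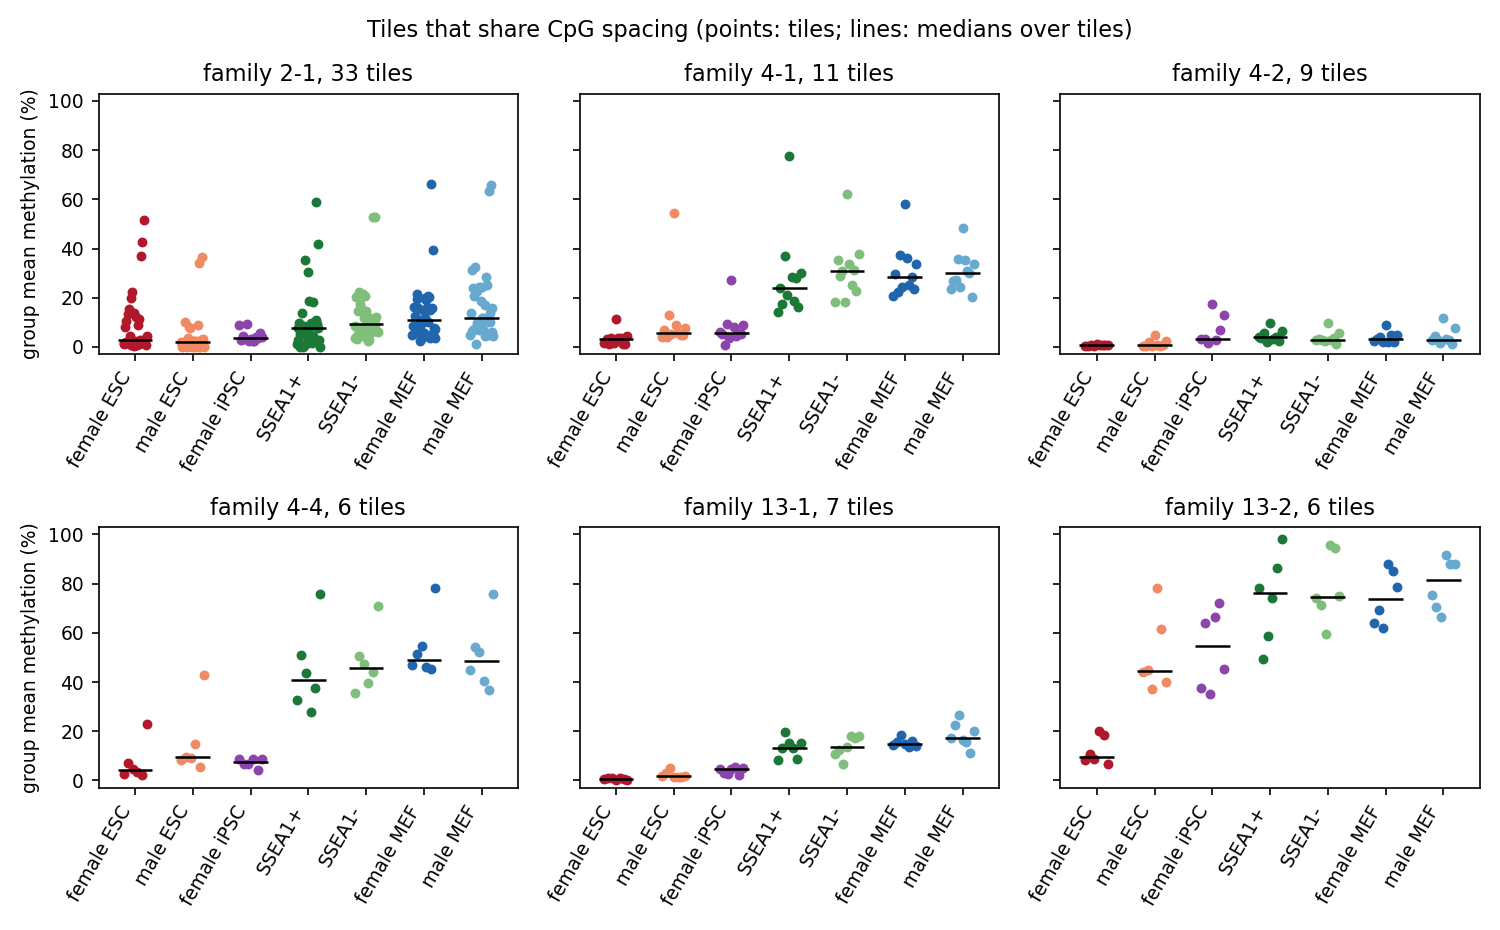
Group mean methylation (y axis, percent) in the 7 groups for the tiles of 6 copy families, with a point per tile and a line at the median over tiles. Families 4-1, 4-4 and 13-1 lie mostly under 10% in ESC and iPSC and higher in SSEA1 cells and MEF, family 4-2 is low throughout, and family 13-2 is lowest in female ESC.

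Over all copied tiles, the result depended on whether a size was asked for. With no size asked for, at an adjusted p under 0.05, 60 of 96 copied tiles (62.5%) were lower in male ESC than in male MEF, against 59 of 272 other window tiles (21.7%) and 23.1% of all tiles tested. In female ESC against female MEF this was 82 of 113 copied tiles (72.6%), 257 of 392 others (65.6%) and 63.5% of all tiles. In iPSC against female MEF it was 53 of 84 copied tiles (63.1%), 181 of 361 others (50.1%) and 49.1% of all tiles. With a difference of at least 20 points asked for, 36 of 113 copied tiles (31.9%) were called lower in female ESC, against 196 of 392 others and 50.9% of all tiles, so the order of the shares turned round. In male ESC 27 of 96 copied tiles (28.1%) and 46 of 272 others (16.9%) were called, beside 16.2% of all tiles. In iPSC the shares were 26.2% of copied tiles and 26.04% of others, beside 25.8% of all tiles. Copies share sequence and possibly reads and are not independent of each other, and the part of their deeper coverage in these counts was not tested.

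Promoters outside the copy families were close to unmethylated in most groups. On chromosomes 4 and 13, 26 of 122 and 13 of 145 promoters could be placed by their CpG spacing, against 1 each with strands swapped. Zfp935 at chr13:62568123-62568422 held 0.543 ± 1.09% in female ESC (SD, n = 4), 5.12% in iPSC and 2.86 ± 2.57% in female MEF (n = 4). Zfp933 at chr4:147222478-147222777 held 1.82 ± 2.78% in female ESC, 6.55% in iPSC and 0 to 0.965% in the female MEF libraries. Genes other than zinc finger genes share the windows, and the promoters of Plod1 (a lysyl hydroxylase of collagen) and Clcn6 (a chloride transporter) averaged 0 to 0.833% in ESC and MEF of both sexes. Those of Ptch1, the Hedgehog receptor, averaged 0.194% in female ESC and 1.60% in female MEF.

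A pair of placed promoters outside the families differed between cell types, both singled out after their values were seen. The CpGs that match Gm32476, and on a nearby start Gm46425, at chr13:66051265-66051564 were low in pluripotent cells. Female ESC held 5.17, 4.35, 4.24 and 6.58%, male ESC 12.9 and 19.7%, iPSC 27.8 and 15.4%, SSEA1+ cells 65.9 and 85.3%, SSEA1- cells 77.6 and 78.3%, female MEF 74.0, 76.6, 58.1 and 58.7% and male MEF 81.9 and 67.9%. Every ESC and iPSC library was below every SSEA1 and MEF library. The reverse was seen at chr4:147242838-147243137, which matches the promoters of Miip and of Fv1, a restriction factor against murine leukaemia viruses. Female ESC held 24.7, 20.8, 11.4 and 21.8%, male ESC 7.84 and 5.24%, iPSC 18.1 and 21.0%, SSEA1+ cells 3.02 and 2.50%, SSEA1- cells 5.24 and 0.585%, female MEF 1.504, 5.88, 4.54 and 3.22% and male MEF 3.56 and 2.67%. Female ESC and iPSC were above all other libraries there, at means of 19.7 ± 5.77% (SD, n = 4) and 19.5 ± 2.08% (n = 2), beside 3.79 ± 1.87% in female MEF (n = 4).

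The 5 tiles of most CpGs in the chromosome 13 window that were measured in all 18 samples (26.7 to 39.9 CpGs) were close to unmethylated in every group, with means of 0.0619 to 1.17% in female ESC, 2.19 to 4.56% in iPSC and 0.335 to 2.90% in female MEF. On chromosome 2 the most CpG-rich of the tiles measured in all samples, chr2:176879001-176880000 with 11.3 CpGs, was methylated. It averaged 37.8 ± 2.65% for female ESC (SD, n = 4), 65.3 ± 1.94% for male ESC, 31.6 ± 2.48% for iPSC (n = 2 each), 81.4 ± 5.06% for female MEF (n = 4) and 90.9 ± 4.25% for male MEF (n = 2). Each iPSC library was below each female ESC library there, these below male ESC, and male ESC below all SSEA1 and MEF libraries. At chr4:147523001-147524000 (9.11 CpGs), beyond Zfp933, female ESC held 4.09 to 11.2%, male ESC 28.3 and 13.5%, iPSC 7.06 and 8.58%, SSEA1 cells 55.9 to 73.8% and MEF 49.6 to 76.8%. ESC and iPSC were below all other libraries at that tile.

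The windows were not uniform along their length. In the gene order of RefSeq, 15 of 20 protein-coding genes from Dhrs3 to Zfp933 on chromosome 4 have a Zfp name, against 0 of 17 from Zfp933 to Mtor, so the end of that window lies beyond the cluster. Up to Zfp933, 59 tiles averaged 25.4 ± 0.933% in female ESC (SD, n = 4) and 47.8 ± 0.870% in female MEF (n = 4), with iPSC at 35.3 ± 0.0662%, male ESC at 39.1 ± 0.0508% and male MEF at 49.1 ± 1.09% (n = 2 each). Beyond Zfp933, 30 tiles averaged 14.7 ± 1.12% in female ESC and 19.9 ± 1.76% in female MEF, with iPSC at 21.1 ± 0.476%, male ESC at 22.7 ± 0.563% and male MEF at 21.8 ± 1.53%. ESC and iPSC were thus below MEF of their sex up to Zfp933, and beyond it male ESC and iPSC lay no lower than MEF.

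On chromosome 13, 2 of 26 protein-coding genes between Zfp935 and Gm36445 have a Zfp name, and 25 of 46 from Gm36445 to Mtrr. Between Zfp935 and Gm36445, 40 tiles averaged 19.3 ± 1.06% in female ESC and 34.8 ± 0.887% in female MEF (SD, n = 4 each). Beyond Gm36445 another 40 averaged 22.3 ± 0.276% in female ESC and 51.3 ± 2.13% in female MEF, with male ESC at 36.1% and iPSC at 32.5%. Between these stretches, the one rich in zinc finger genes was the more methylated in MEF and about as low in female ESC. The stretch up to Zfp935, with 7 tiles, was above both. It averaged 32.9 ± 0.863% in female ESC and 60.7 ± 5.78% in female MEF (SD, n = 4 each). High methylation in MEF was thus not limited to the stretch beyond Gm36445. The gene names of the stretch up to Zfp935 were not counted, so no link to zinc finger genes is drawn. On chromosome 2, where 10 of 36 genes have a Zfp name and 21 a Gm name, 13 tiles averaged 24.1 ± 1.36% in female ESC and 39.8 ± 1.79% in female MEF.

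**Figure D4:**
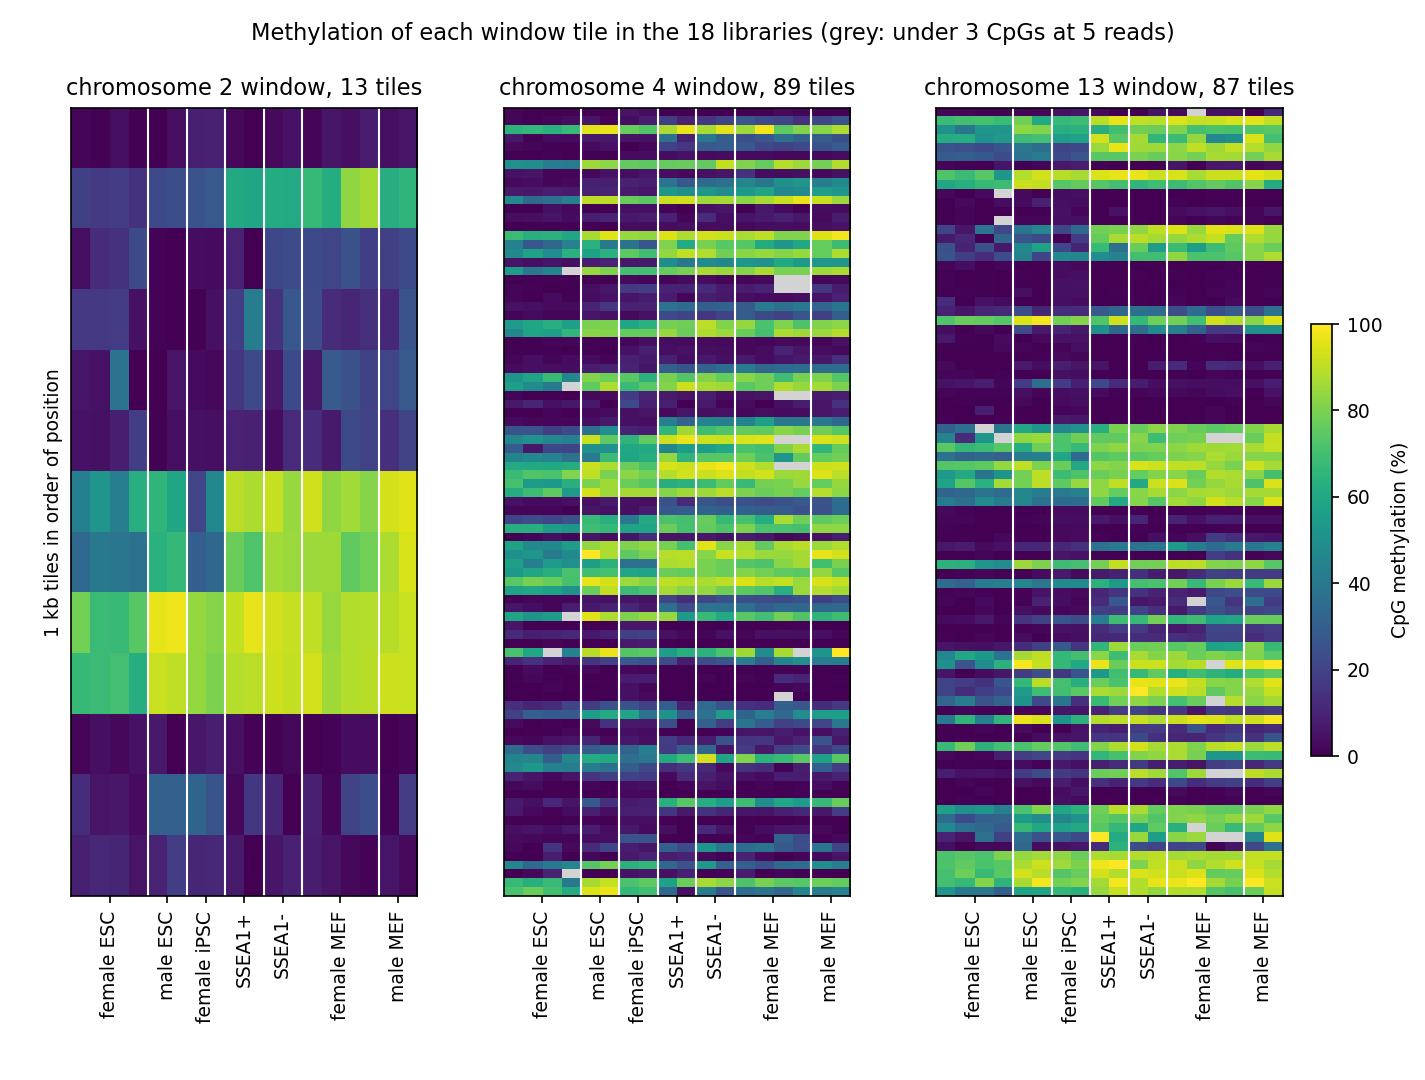
Methylation (color, percent) of the 13, 89 and 87 window tiles measured in all groups, in order of position from top to bottom, in the 18 libraries, set out by group from left to right. Runs of tiles with low values in the ESC and iPSC columns and higher values in the SSEA1 and MEF columns recur through the chromosome 4 and 13 windows.

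Over all window tiles, differences between groups were called in the same way, on methylated and total reads, with p-values adjusted over all tiles of the genome (Benjamini-Hochberg). Female ESC were lower than female MEF at 232 of 505 window tiles (45.9%) and higher at 6 (1.19%), against 50.9% lower and 1.49% higher over all tiles tested. With near-duplicate libraries summed, the counts were 214 and 5. Male ESC were lower than male MEF at 73 of 368 window tiles (19.8%) and higher at 10 (2.72%), against 16.2% and 5.24% over all tiles. These shares are near those of the genome and do not set the windows as a whole apart.

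Window by window, female ESC were lower than female MEF at 17 of 62 tiles on chromosome 2 (27.4%), 88 of 196 on chromosome 4 (44.9%) and 127 of 247 on chromosome 13 (51.4%), with 48.0, 49.6 and 46.8% in the rest of those chromosomes. Male ESC were lower than male MEF at 9 of 43 (20.9%), 18 of 142 (12.7%) and 46 of 183 tiles (25.1%), with 14.1, 15.2 and 13.97% in the rest. Stretches dense in zinc finger genes differed. Beyond Gm36445 on chromosome 13, 69 of 121 tiles (57.0%) were lower in female ESC and 28 of 92 (30.4%) in male ESC, each against MEF of its sex. Up to Zfp933 on chromosome 4 these were 63 of 127 (49.6%) and 16 of 96 (16.7%), near the 50.9 and 16.2% of all tiles.

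**Figure D5:**
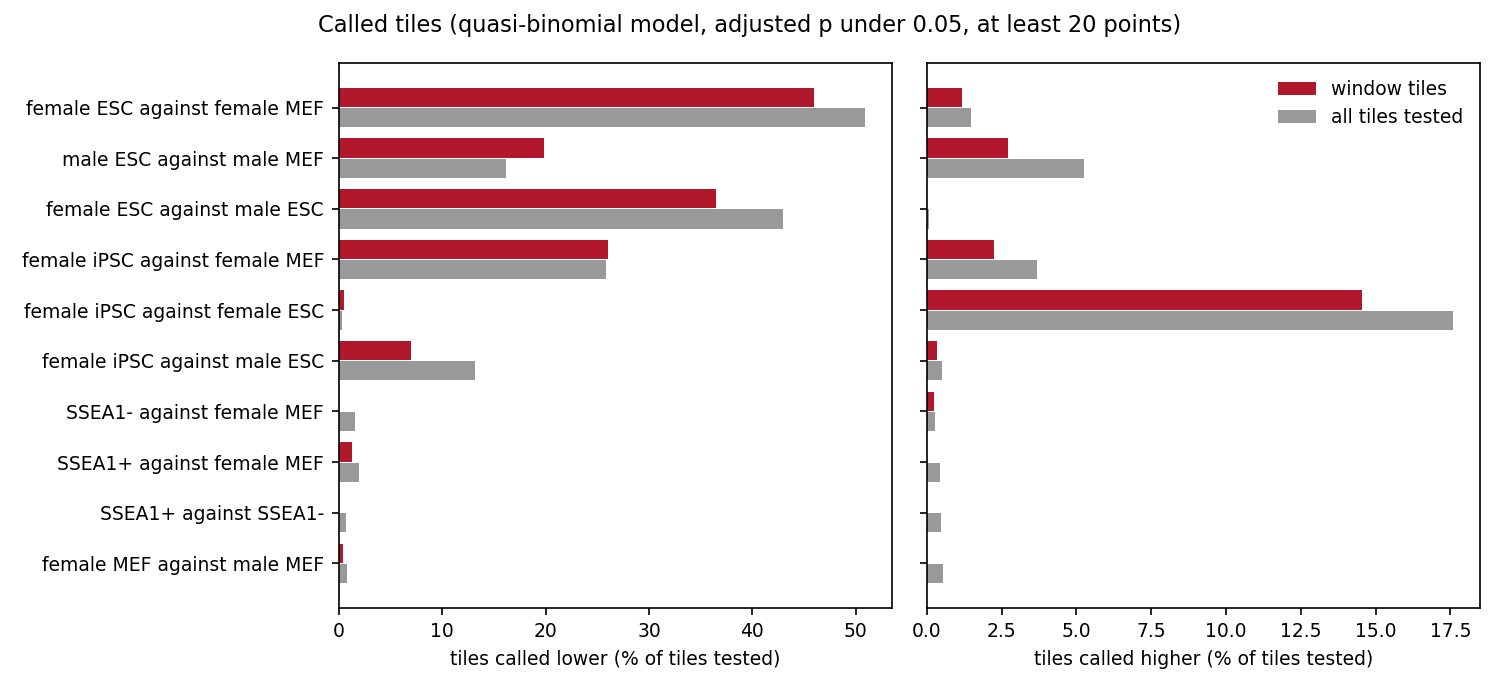
Percent of tiles called lower (left) and higher (right) in the first-named group of each of the 10 comparisons, for the window tiles (red) and all tiles tested (grey). Red and grey bars are close for most comparisons, with 19.8 and 16.2% lower for male ESC against male MEF and 7.05 and 13.2% lower for iPSC against male ESC.

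The tiles with the largest called losses in ESC lay in the chromosome 13 window and held few CpGs. Like other tiles named for a called difference, they were picked among tiles where the compared groups do not overlap. At chr13:66620001-66621000, with 3 CpGs, female ESC held 6.25, 8.05, 4.46 and 0%, against 89.0 and 80.8% in the 2 female MEF libraries that covered it (-80.2 points, adjusted p = 4.47e-07). Male ESC held 22.4 and 18.4% there, against 84.3 and 85.7% in male MEF (-64.6 points, adjusted p = 4.76e-06). At this tile iPSC (17.2 and 20.1%) were close to male ESC. At chr13:66963001-66964000 male ESC held 17.8 and 22.7%, against 90.1 and 87.5% in male MEF (-68.5 points, adjusted p = 3.17e-08), and female ESC held 3.92 to 8.49%. At chr13:63539001-63540000 female ESC held 7.41, 11.1, 0 and 33.3%, against 76.2 to 91.2% in female MEF (-71.8 points, adjusted p = 2.04e-06). The iPSC held 0 and 17.3% there (-76.1 points against female MEF, adjusted p = 1.26e-05). The largest difference of all, at chr13:66928001-66929000, rests on 2 female ESC libraries at 11.1 and 0%, against 94.7, 83.5 and 85.1% in 3 female MEF libraries (-82.2 points, adjusted p = 0.000388). Reads behind these 4 tiles were few in some libraries, with 18 to 33 in the lowest and 266 to 376 in the highest.

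A few tiles went the other way, among them several beyond Zfp933 on chromosome 4. At chr4:147680001-147681000 male ESC held 94.6 and 96.9%, against 42.2 and 44.2% in male MEF (52.6 points, adjusted p = 4.06e-06), and female ESC held 61.3 to 77.6%, against 32.9 to 46.0% in female MEF. At chr4:147686001-147687000 female ESC averaged 62.0 ± 15.2% (SD, n = 4), against 11.6 to 15.6% in 3 female MEF libraries (48.7 points, adjusted p = 5.34e-06). At chr4:147489001-147490000 female ESC held 41.9 to 53.2%, against 0.952 to 14.3% in female MEF (37.6 points, adjusted p = 4.76e-06). These 3 tiles, too, were picked among tiles where the compared groups do not overlap. Male ESC were also higher than male MEF at chr4:144699001-144700000 (41.7 points, adjusted p = 0.00808) and chr13:64665001-64666000 (37.9 points, adjusted p = 0.0243). The first of these calls was lost without male ESC 1 or male MEF 2, and the other without either male ESC library.

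Female ESC were called lower than male ESC at 139 of 381 window tiles (36.5%), against 43.0% over all tiles. None was called higher, against 0.0683% over all tiles, limma called none higher as well, and 220 of the 381 tiles had an unadjusted p under 0.05 in either direction. The largest called difference was at chr4:147615001-147616000, with 26.2 and 13.3% in 2 female ESC libraries and 91.2 and 95.8% in male ESC (-73.7 points, adjusted p = 0.000229). At chr4:147469001-147470000 the values were 29.8 ± 9.16% in 3 female ESC libraries (SD) and 89.7 and 87.2% in male ESC (-58.6 points, adjusted p = 0.000673). At chr13:66163001-66164000 of family 13-2 they were 14.8 to 26.9% in female ESC and 66.4 and 89.7% in male ESC (-58.1 points, adjusted p = 4.21e-05). Female ESC minus male ESC had a median of -3.48 points over family 4-1 and -1.13 points over family 13-1. It was larger in families 4-9 (-25.5 points) and 4-10 (-26.9 points), whose 4 tiles were all called lower in female ESC.

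The iPSC were called lower than female MEF at 116 of 445 window tiles (26.1%) and higher at 10 (2.25%), against 25.8% and 3.69% over all tiles, and with near-duplicate libraries summed the counts were 107 and 8. In families 4-1 and 4-4, iPSC were called lower than female MEF at 9 of 11 and 6 of 6 tiles. At chr4:146562001-146563000 of family 4-4, iPSC held 9.70 and 8.12%, against 75.5 to 82.2% in female MEF (-69.4 points, adjusted p = 7.36e-11). At chr13:63728001-63729000, iPSC were higher, with 80.9 and 75.3%, against 28.6 and 27.1% in the near-duplicate female MEF 3 and 4 (50.2 points, adjusted p = 8.17e-06), a call that was lost with the replicate number as a block. Female ESC held 56.9 to 68.2% there.

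In mean level, iPSC lay between female and male ESC. They were higher than female ESC at 56 of 385 window tiles (14.5%) and lower at 2 (0.519%), against 17.6% and 0.290% over all tiles. The largest called increase was at chr13:66311001-66312000, with 87.8 and 84.0% in iPSC and 22.2 to 37.5% in 3 female ESC libraries (54.9 points, adjusted p = 0.000289). Next came chr13:66928001-66929000 (54.8 points, adjusted p = 0.00807) and chr4:147615001-147616000 (54.2 points, adjusted p = 0.00338). The tiles lower in iPSC were chr13:63185001-63186000 (-26.3 points, adjusted p = 0.0123) and chr4:147489001-147490000 (-20.6 points, adjusted p = 0.0221), and both calls were lost without iPSC 2 and with library type as a term. The iPSC were lower than male ESC at 21 window tiles (7.05%) and higher at 1 (0.336%), against 13.2% and 0.509% over all tiles, and the higher tile was chr13:66731001-66732000 (33.6 points, adjusted p = 0.0147), a call that was lost without male ESC 1 or iPSC 1. With near-duplicate libraries summed, the counts were 55 higher and 2 lower against female ESC, and 1 higher and 21 lower against male ESC. With library type as a term, iPSC were higher than female ESC at 11 window tiles and lower than male ESC at 2. The iPSC share no library type with ESC, so that fit takes the differences between types from MEF, which hold all 3 types.

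Unmethylated tiles had a higher floor in iPSC, inside and outside the windows. In window tiles under 10% in female MEF, iPSC averaged 6.22% and female ESC 2.49%, and in such tiles of the rest iPSC averaged 6.08% and female ESC 1.87%. At the CpG-rich tile chr4:147315001-147316000, with 33.2 CpGs, both iPSC libraries (8.01 and 7.89%) and female MEF 3 and 4 (11.8 and 9.975%), all of type C, were above female MEF 1 and 2 (1.31 and 0.778%), of types A and B. This was not so at every tile: at chr4:145335001-145336000, with 54.9 CpGs, female MEF 3 and 4 had 2.27 and 2.08%, below female MEF 1 and 2 with 2.93 and 2.74%. The part of the library type in these low levels was not tested.

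In SSEA1 cells the windows were close to female MEF, with mean levels 0.431 points above them in SSEA1- cells and a difference of -1.50 points in SSEA1+ cells. SSEA1- cells had 0 window tiles lower and 1 of 437 higher, against 1.55% and 0.291% over all tiles. Of the 437, 76 had an unadjusted p under 0.05, and limma also called 0 and 1. The 1 tile, chr13:63185001-63186000, averaged 94.7 ± 7.44% in SSEA1- cells (SD, n = 2) and ranged over 62.1 to 76.2% in 3 female MEF libraries (23.5 points, adjusted p = 0.0497), and the call was lost without either SSEA1- library. SSEA1+ cells were lower at 4 of 314 tiles and higher at 0, against 2.02% and 0.450%, with 47 at an unadjusted p under 0.05, and limma called 1 lower. SSEA1+ and SSEA1- cells differed at 0 of 333 tiles, against 0.757% lower and 0.489% higher over all tiles. Of the 333, 31 had an unadjusted p under 0.05, and limma called 0. In simulated counts for this pair, 42% of tiles lowered by 25 points were called, so 0 calls do not show the absence of differences. The tiles lower in SSEA1+ cells included chr4:147302001-147303000, with 15.5 ± 10.6% in SSEA1+ cells (SD, n = 2), 30.4 to 50.3% in female MEF and 7.02 to 14.4% in female ESC (-26.7 points, adjusted p = 0.0131). Another was chr13:63615001-63616000, with 49.0 and 44.4% in SSEA1+ cells and 71.6 to 83.3% in female MEF (-28.5 points, adjusted p = 0.0415). Neither call held without either SSEA1+ library. The remaining tiles were chr13:63358001-63359000 (-55.6 points, adjusted p = 0.0499), a call also lost without either SSEA1+ library, and, singled out after its values were seen, chr4:146593001-146594000 of family 4-10 (-26.4 points, adjusted p = 0.00978).

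Female MEF were lower than male MEF at 2 of 451 window tiles and higher at 0, against 0.827% and 0.536% over all tiles, limma called 1 and 0, and 96 had an unadjusted p under 0.05. The tiles were chr4:147686001-147687000, with 11.6 to 15.6% in female MEF, against 41.1 and 44.3% in male MEF (-29.4 points, adjusted p = 0.0109), and chr13:64285001-64286000, with 49.1 to 63.4% in female MEF, against 81.0 and 87.5% in male MEF (-27.1 points, adjusted p = 0.0103). Both calls were lost without male MEF 1, and the first also without female MEF 4.

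In female ESC and female MEF, tiles just outside the windows were more methylated than those just inside, most of all on chromosome 2. These few tiles were not matched on CpG number, and the chromosome 4 window ends beyond its cluster. No boundary of the clusters can therefore be read from these values. Male ESC on chromosome 13 were an exception, with 62.6% inside and 61.4% outside. Within 500 kb inside the outer edges, tiles averaged 5.20% in female ESC and 6.15% in female MEF on chromosome 2 (4 tiles), 14.1 and 19.0% on chromosome 4 (32 tiles), and 47.0 and 69.1% on chromosome 13 (12 tiles). Within 500 kb outside, the averages in the same order were 33.7 and 44.5% (10 tiles), 24.8 and 34.6% (24 tiles), and 52.5 and 76.2% (9 tiles). Window tiles of 3 CpGs (8 tiles) averaged 21.0% in female ESC and 60.8% in female MEF, and those of 2 CpGs, which were not members (17 tiles), 53.1% and 77.2%. Tiles not measured in every group entered the comparisons in which they were covered, and 1155 tiles of the windows had any read in any library.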

How the data were processed

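The authors deposited, for each of the 18 RRBS libraries, a list of CpGs with the count of methylated reads and of all reads per CpG and strand, and a score that is the methylated share scaled to whole numbers, on mm9 per the submitters' processing notes. RRBS was done on small cell numbers per the labels' protocols. Of the aligner, the caller and the treatment of reads that fit several places, nothing is given in the sources used here. The deposited score was not used in any test, and all levels come from the deposited counts. The 2 strands of each CpG were summed, CpGs under 5 reads were left out, and reads were summed in 1 kb tiles with at least 3 such CpGs.

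A quasi-binomial logistic model over all 7 groups was fitted to each of 136394 tiles with numpy 2.4.6, scipy 1.17.1 and pandas 2.3.3 (Python 3.11.15). Dispersions were moderated across tiles by the method of limma, checked against limma 3.58.1 (R 4.3.3), and p-values were adjusted over all tiles of a comparison. The code was tested on simulated data before use. Level differences from the rest of the same chromosomes weight the rest to the windows' CpG number classes.

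Named tiles were the 5 of most CpGs per window measured in all 18 samples, the 3 largest called differences per comparison and direction with groups that do not overlap (1 per 100 kb), and the 3 per window with the widest range of group means. The windows, these rules and the lists were chosen with earlier results of these data known, and the rules for CpG spacing and promoter placement, which do not use levels, after the files were seen. Replicate numbers were not taken to pair samples across groups, which was checked for female ESC and female MEF only. Alternatives covered the minimum reads, a cap of 50 reads, CpGs shared by all samples, limma on the log2 of methylated over unmethylated reads, a replicate block, the library type, other matches of the rest, leaving out each window or library, and summing near-duplicate libraries. PCR reads are not independent molecules, so read numbers overstate the precision of a single library. Figures were drawn with matplotlib 3.10.9.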

Additional observations from a re-analysis of the deposited data

Results flagged for a closer look

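In groups of 4 libraries, a library that stood far from the other 3 was looked for in the levels and tiles named above. Of 92 such groups 5 had one, and chance gives about 1 in 20 groups. Over the chromosome 4 window, female MEF 2 had 36.8%, against 38.6 to 38.8% in the other female MEF libraries. For family 4-1, female ESC 3 had a median of 1.58%, against 2.78 to 2.99% in the other female ESC libraries. At chr2:176131001-176132000 female ESC 4 had 4.35%, against 16.5 to 17.3%. At chr13:64254001-64255000 female ESC 2 had 0.248%, against 0 in the others. At chr13:66731001-66732000 female ESC 3 had 16.7%, against 28.7 to 30.2%.

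The contrast of ESC with MEF had opposite signs in the sexes at chr2:177544001-177545000. Female ESC averaged 57.8 ± 5.24% and female MEF 80.1 ± 6.34% (SD, n = 4 each), a difference of -22.2 points (adjusted p = 4.7e-05 in the model fitted across all tiles). Male ESC averaged 88.9 ± 4.03% and male MEF 67.7 ± 11.3% (n = 2 each), a difference of 21.2 points (adjusted p = 0.0129 in the same model). The difference between the sexes was not tested.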

How the results depend on the processing

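Levels are given as the windows minus the rest of the same chromosomes, in points. With 10 reads per CpG they were -5.92 for female ESC, -6.88 for iPSC, 0.162 for SSEA1+ cells, 1.05 for SSEA1- cells, 0.627 for female MEF and 0.426 for male MEF, the last 4 with the sign turned. With 3 reads they were -3.82 for female ESC, -6.33 for male ESC and -4.84 for iPSC. With the rest matched on female MEF level as well, an alternative chosen after seeing the data, they were -2.71, -4.77 and -3.998 for female ESC, male ESC and iPSC, and turned to 1.82, 2.84, 0.846 and 1.33 for SSEA1+, SSEA1-, female MEF and male MEF. Weighted by reads they were -2.36, -4.57 and -3.59, and turned to 4.86, 4.76, 2.51 and 5.38, in the same order. Matched on CpG number and reads they were -5.07, -7.17, -5.58, -1.83, -1.005 and -2.32 for female ESC, male ESC, iPSC, SSEA1+, SSEA1- and female MEF. With no match they were -4.45, -6.18, -4.94, -1.46, -0.535, -1.96 and -1.45 for the 7 groups. With tiles measured in all 18 samples they were -4.57, -6.78 and -5.49 for female ESC, male ESC and iPSC. Without the chromosome 2 window female ESC had -5.91. Without chromosome 4 the values were -6.01 for female ESC, -7.04 for iPSC, -0.114 for SSEA1+, 0.304 for SSEA1- (sign turned), -0.540 for female MEF and -0.241 for male MEF. Without chromosome 13 they were -4.15, -6.99, -5.08, -5.38, -4.20, -6.10 and -5.63 for the 7 groups. Leaving out 1 library gave -5.53 to -5.32 for female ESC, -7.77 to -7.66 for male ESC, -6.36 to -5.84 for iPSC, -2.30 to -2.25 for SSEA1+, -1.67 to -1.39 for SSEA1-, -4.07 to -3.12 for female MEF and -3.55 to -2.34 for male MEF.

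Counts of called tiles moved by over 1.5 times as follows, with the cause not tested. With 10 reads, fewer tiles were tested, and female ESC were lower than female MEF at 151 tiles and than male ESC at 74, male ESC higher than male MEF at 4, iPSC lower than male ESC at 12 and higher at 0, SSEA1- lower than female MEF at 1 and higher at 0, and SSEA1+ lower at 1. With 3 reads, male ESC were higher than male MEF at 17, SSEA1- lower than female MEF at 2 and higher at 0, and SSEA1+ higher at 1. With library type as a term, iPSC were higher than female ESC at 11 and lower at 0, lower than male ESC at 2 and higher at 0, SSEA1- higher at 0, SSEA1+ lower at 0, and female MEF lower than male MEF at 1. With limma, iPSC were lower than female ESC at 0, SSEA1+ lower at 1 and female MEF lower than male MEF at 1. With near-duplicate libraries summed, SSEA1- were higher at 0 and SSEA1+ lower at 2, and with reads capped at 50 these counts were 0 and 2. With CpGs shared by all samples, female ESC were lower than female MEF at 91 and higher at 1, iPSC lower than female MEF at 49 and higher at 3, iPSC higher than female ESC at 37 and than male ESC at 2, SSEA1- lower at 1 and higher at 0, SSEA1+ lower at 0, and female MEF lower than male MEF at 1. Without copied tiles, male ESC were lower than male MEF at 46.

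Replicate numbers did not pair female ESC with female MEF, with correlations of deviations between same-numbered samples of -0.0137 to 0.000657. Pairing between other groups, such as SSEA1+ and SSEA1- cells, was not checked. The fit with the replicate number as a block gave iPSC higher than female MEF at 6, SSEA1- higher at 0, SSEA1+ lower at 0 and female MEF lower than male MEF at 1, and moved no other count of calls by over 1.5 times.

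Leaving out 1 library at a time, female ESC were lower than female MEF at 190 to 228 tiles and higher at 5 to 7. Male ESC were lower than male MEF at 57 to 75 and higher at 5 to 13. Female ESC were lower than male ESC at 112 to 156 and higher at 0 to 2. The iPSC were lower than female MEF at 93 to 122 and higher at 6 to 11, lower than female ESC at 0 to 4 and higher at 47 to 57, and lower than male ESC at 12 to 29 and higher at 0 to 1. SSEA1- were lower than female MEF at 0 to 2 and higher at 0 to 3, SSEA1+ lower at 0 to 5 and higher at 0 to 1, female MEF lower than male MEF at 0 to 5 and higher at 0 to 1, and SSEA1+ differed from SSEA1- at 0 each time. Groups of 2 libraries and tiles of few reads limit what single tiles can show.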
